A study of Mus musculus with 2 samples.

Results

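The cathepsins are the proteases of the lysosome, and 10 of their genes were followed here through the cells of mouse liver tumours: Ctsa, Ctsb, Ctsc, Ctsd, Ctse, Ctsh, Ctsk, Ctsl, Ctss and Ctsz. They were picked by gene symbol out of the 32285 genes in the count matrices, each symbol matched 1 row, and no measured value entered the choice. The tumours came from Hepa1-6, a hepatoma line of the mouse, and single cells were sequenced in droplets from a control and from a group given CD147-LYTACs. Dosing was 40 mg/kg, repeated at 3-day intervals to 4 doses in all, by a route that the labels leave between intraperitoneal and intravenous, and tumours were taken on day 12. The CD45-negative and CD45-positive cells of each tumour suspension were sorted apart and put together again at 1 part to 3 before the run. Both groups thus share the cell line and the sort, and their labels differ in the treatment. Each group was 1 library, so the treatment cannot be told apart from other differences between the libraries. The sources used here do not give the mouse strain, the age, what the control mice received or the number of tumours per library.

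Cathepsins are made as inactive precursors, carried to the lysosome largely by mannose 6-phosphate receptors, and switched on by the acid there. Most are cysteine proteases of the papain family (Ctsb, Ctsc, Ctsh, Ctsk, Ctsl, Ctss, Ctsz), Ctsd and Ctse are aspartic proteases, and Ctsa is a serine carboxypeptidase that also protects other lysosomal enzymes. A lysosome-targeting chimaera (LYTAC) ties a surface protein, here CD147, to a receptor that travels to the lysosome, the compartment in which these proteases work. In tumours, macrophages are known as a main source of cathepsins, which cut matrix proteins when secreted and trim antigens and the invariant chain inside antigen-presenting cells.

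Cells were sorted into types by a gate on marker genes that holds no cathepsin, and the names carry the suffix -like because they rest on those markers alone. The gate took 5970 control cells (89.3% of those kept) and 6509 treated cells (85.2%). Macrophage-like cells numbered 93 in the control and 271 in the treated library, monocyte-like cells 60 and 145, neutrophil-like cells 142 and 1235, conventional dendritic-like cells 110 and 70, hepatoma-like cells 1867 and 2047, T-like cells 3544 and 2573, and NK-like cells 68 and 71. Another 4 types had under 50 cells in a library and are described by level only. Among the 10 leading genes of each type no other type's markers outnumbered its own. Cells that passed the gates of more than 1 lineage were left out and made up 2.08% of kept control and 6.37% of kept treated cells. The libraries held 143495332 and 149812326 UMIs, and 24 barcode sequences occurred in both. Median depth was 46912 and 43764 UMIs in hepatoma-like cells, 6210 and 6215 in T-like cells, 5418 and 4802 in macrophage-like cells and 5931 and 4633 in monocyte-like cells.

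Levels are given as counts per 1000000 UMIs of a type (CPM), control value first, from UMIs summed over its cells. Intervals in square brackets are exact 95% intervals that cover counting error only. Because there was 1 library per group, no difference has a replicate check and no test between the groups was made. A member is called higher or lower in a type where it differed by at least 1.5-fold, with an interval that excludes no difference, at least 100 UMIs over both libraries and at least 50 CPM in the higher one. The share of all measured genes of the type that met the same rule stands beside the first count in each type. It is the background for every later count of calls in that type. Counts of another type's markers take any greater CPM in the treated library, and no share of all genes stands beside them.

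The 10 genes lie on 7 chromosomes (GRCm38, GENCODE M21), and all are protein coding. Ctsk (chr3:95499256-95509362) and Ctss (chr3:95526786-95556403) are close neighbours on the plus strand. Ctsc (chr7:88278085-88310888) and Ctsd (chr7:142375911-142388038) share a chromosome, as do Ctsa (chr2:164832873-164841032) and Ctsz (chr2:174427493-174439039). Ctsb lies at chr14:63122462-63145923, Ctse at chr1:131638306-131675505, Ctsh at chr9:90054152-90076089 and Ctsl at chr13:64359337-64370890. Annotated models on the same strand overlap Ctsd (Gm49369), Ctsl (Gm49230) and Ctss (the pseudogene Hmgb1-ps5). Reads shared between them could be split in a way that the matrices do not show, so the values of these 3 genes carry that uncertainty. The sources used here do not say whether the counting used strand, and opposite-strand genes overlap Ctsa, Ctsb, Ctsc, Ctsl and Ctsz.

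The lysosomal gene regulators Tfeb, Tfe3 and Mitf bind E-boxes, and the E-box CACGTG was therefore looked up around the start sites of the members. The windows ran from 250 bases before to 50 bases after each RefSeq start (GRCm38.p6), and the motif reads the same on both strands. Of the 7 members with an entry 3 held it, Ctsa, Ctsd and Ctsl, against 7.15% of 32851 promoters of that length. Ctsb, Ctse and Ctsh had no entry. Ctsd and Ctsl are shown because they were the cathepsins higher in both macrophage-like and monocyte-like cells of the treated library. Ctsk is shown because it was higher in macrophage-like cells and had no CACGTG in its window. Other forms of the E-box were not looked up. The sequences run 5' to 3' on the strand of the gene, with CACGTG in capitals.
Ctsd, chr7:142388057-142388077, minus strand: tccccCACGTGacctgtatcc
Ctsd, chr7:142387910-142387935, minus strand: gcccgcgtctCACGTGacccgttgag
Ctsl, chr13:64370741-64370766, minus strand: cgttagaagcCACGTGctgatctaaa
Ctsk, chr3:95498960-95499209, plus strand: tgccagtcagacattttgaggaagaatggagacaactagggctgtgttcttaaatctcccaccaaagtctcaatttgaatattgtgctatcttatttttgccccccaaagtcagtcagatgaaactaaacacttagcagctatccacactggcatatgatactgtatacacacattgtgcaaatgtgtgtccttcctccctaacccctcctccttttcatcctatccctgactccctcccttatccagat
The first Ctsd copy lies upstream of every annotated Ctsd transcript. The second lies within the Ctsd gene, in an annotated UTR on its strand in GENCODE M21. The Ctsl copy lies within the Ctsl gene, inside an annotated transcript on its strand, with 3 of its 6 bases in an annotated UTR. The gene that these transcripts and UTRs belong to was not recorded. The Ctsk window, the 250 bases before its start, overlaps no annotated transcript on its strand. A match describes the letters and no more.

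Macrophage-like cells held the highest level of 7 members, taken as the mean of both libraries. For 1 of these, Ctsl, they led in the treated library only. Plasmacytoid dendritic-like cells led for Ctse and Ctsh, and fibroblast or mural-like cells for Ctsk. No share of all genes stands beside this count, so it does not show whether the members differ from other genes. The plot of levels by type shows all 10 members in the 11 types. Summed over the members, cathepsins stood at 11309 and 15058 CPM in macrophage-like cells, 4699 and 6783 in monocyte-like cells, 2997 and 2718 in neutrophil-like cells and 1965 and 2377 in conventional dendritic-like cells. The sum was 1145 and 1290 CPM in hepatoma-like cells and 618 and 694 CPM in T-like cells. Both libraries thus gave the same order of these 6 types, but not of all types. Plasmacytoid dendritic-like cells, at 4057 and 4425 CPM, lay above neutrophil-like cells. Fibroblast or mural-like cells, at 2199 and 2267 CPM, were above conventional dendritic-like cells in the control and below them in the treated library.

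**Figure D1:**
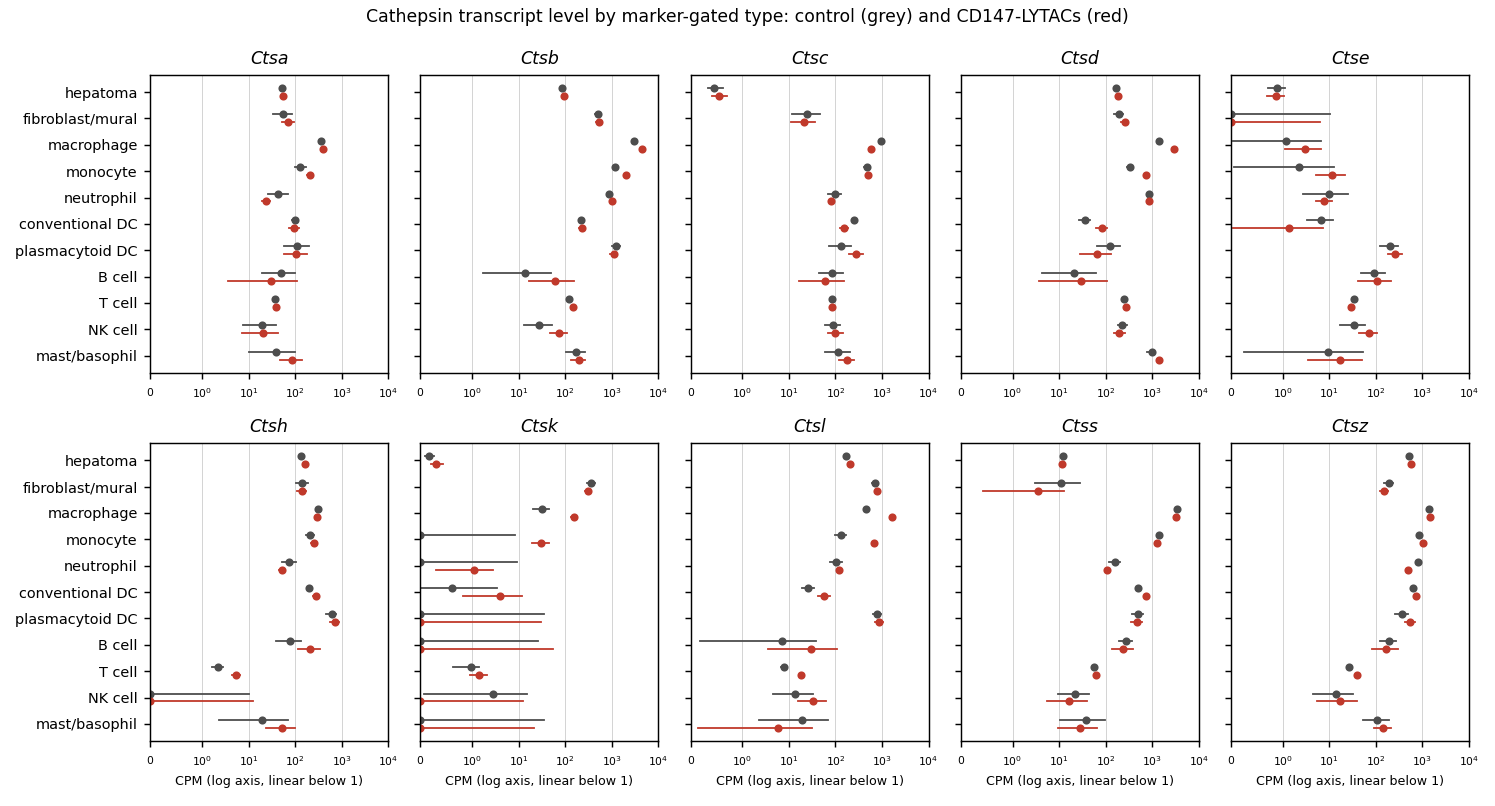
Level of each cathepsin (CPM, log axis that is linear below 1) in 11 marker-gated types, control library in grey and CD147-LYTACs library in red. Points are summed UMIs of 1 library and lines are exact Poisson 95% intervals for counting error. By the mean of both libraries macrophages lead for 7 of the 10 genes, for Ctsl in the treated library only. No share of all genes stands beside this count. The red point of Ctsl lies to the right of the grey one in macrophages and monocytes.

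Of the aspartic proteases, Ctsd, the main one of the lysosome, had UMIs in every type, though only 3 and 2 in B-like cells. It stood at 1405 and 2959 CPM in macrophage-like cells, 967 and 1423 in mast or basophil-like cells, 844 and 843 in neutrophil-like cells and 333 and 726 in monocyte-like cells. The ranges of macrophage-like and mast or basophil-like cells overlapped over the libraries, so their order is not set. T-like cells (246 and 273 CPM) lay above hepatoma-like cells (166 and 185 CPM). Ctsd also took the largest share of family UMIs in T-like cells, at 39.8% and 39.4% in T-like cells against 12.4% and 19.7% in macrophage-like cells.
Ctse, a non-lysosomal relative found in endosomes of immune and gut cells, had another pattern. It stood at 196.8 [121.8 to 300.8] and 261 [179 to 369] CPM in plasmacytoid dendritic-like cells, from 21 and 32 UMIs. B-like cells followed at 90.9 and 104.5 CPM, then NK-like cells (33.1 and 70.1 CPM) and T-like cells (34.7 and 29.9 CPM), which overlapped. In macrophage-like cells it was nearly silent, with 1 and 6 UMIs, and fibroblast or mural-like cells had 0 UMIs in either library, which allows up to 8.30 and 5.24 CPM.

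Ctsa, the serine carboxypeptidase, was led by the mononuclear phagocytes. It stood at 367 and 404 CPM in macrophage-like and 131 and 210.4 CPM in monocyte-like cells. In the other 9 types it lay between 19.3 and 112 CPM. Among those the libraries of neighbouring types overlapped for fibroblast or mural-like, mast or basophil-like and hepatoma-like cells, and for B-like, T-like and neutrophil-like cells.

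Among the cysteine proteases, Ctsb, a broad protease that also trims peptides from their carboxyl end, was led by macrophage-like cells. It stood at 3008 and 4363 CPM in macrophage-like, 1177 and 2042 CPM in monocyte-like, 1237 and 1110.3 CPM in plasmacytoid dendritic-like and 871 and 990.3 CPM in neutrophil-like cells. The ranges of monocyte-like and plasmacytoid dendritic-like cells overlapped. Other myeloid types were lower, with conventional dendritic-like cells at 218 and 227 CPM and mast or basophil-like cells at 172 and 194 CPM, both below fibroblast or mural-like cells (517 and 518 CPM). Ctss, the protease that degrades the invariant chain in antigen-presenting cells, was led by macrophage-like cells (3399 and 3208 CPM), before monocyte-like cells (1395 and 1289 CPM). Conventional dendritic-like cells held 496 and 731 CPM and plasmacytoid ones 497 and 465 CPM, with overlapping ranges, and B-like cells held 273 and 239 CPM. T-like (55.5 and 61.1 CPM) and hepatoma-like cells (11.9 and 11.3 CPM) were low. Ctsc, the dipeptidyl peptidase that activates granule serine proteases, was led by macrophage-like cells (947 and 569.6 CPM) and monocyte-like cells (470.1 and 511 CPM). Its level in the granule-bearing lymphocytes was modest, at 85.5 and 83.8 CPM in T-like and 88.3 and 100.2 CPM in NK-like cells, and neutrophil-like cells (97.3 and 79.95 CPM) lay in the same range. Hepatoma-like cells had 0.458 and 0.539 CPM.

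Ctsl, an endopeptidase of most tissues, was spread over unlike types. Plasmacytoid dendritic-like cells held 787 and 882 CPM, fibroblast or mural-like cells 708 and 793 CPM, and macrophage-like cells 451 and 1652 CPM. Macrophage-like cells were below both of those types in the control library and above both in the treated one, so the 3 ranges overlapped. With clusters in place of the gate, plasmacytoid dendritic cells had the highest mean level of Ctsl. Ctsk, the collagen-degrading protease of osteoclasts, had its highest level in the stroma. Fibroblast or mural-like cells held 359.6 [300.5 to 427] and 314 [270.0 to 364] CPM, macrophage-like cells 31.1 and 150.5 CPM, and hepatoma-like and T-like cells at most 1.43 CPM. Fibroblast or mural-like cells supplied 65.3% of the Ctsk UMIs of gated control cells and 31.4% of those of treated cells, while macrophage-like cells supplied 13.1% and 52.9%.

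Ctsh, an aminopeptidase, and Ctsz, a carboxypeptidase, were both found in the tumour cells. Ctsh stood at 135 and 164 CPM in hepatoma-like cells and Ctsz at 524 and 573 CPM. Ctsz made up 45.8% and 44.4% of the family UMIs in hepatoma-like cells against 12.2% and 9.66% in macrophage-like cells. T-like cells held little of either, at 2.20 and 5.43 CPM of Ctsh and 26.9 and 39.3 CPM of Ctsz. Ctsh led in plasmacytoid dendritic-like cells (609 and 718 CPM) before macrophage-like cells (316 and 295 CPM), and NK-like cells had 0 UMIs in either library, which allows up to 8.28 and 10.0197 CPM.

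**Figure D2:**
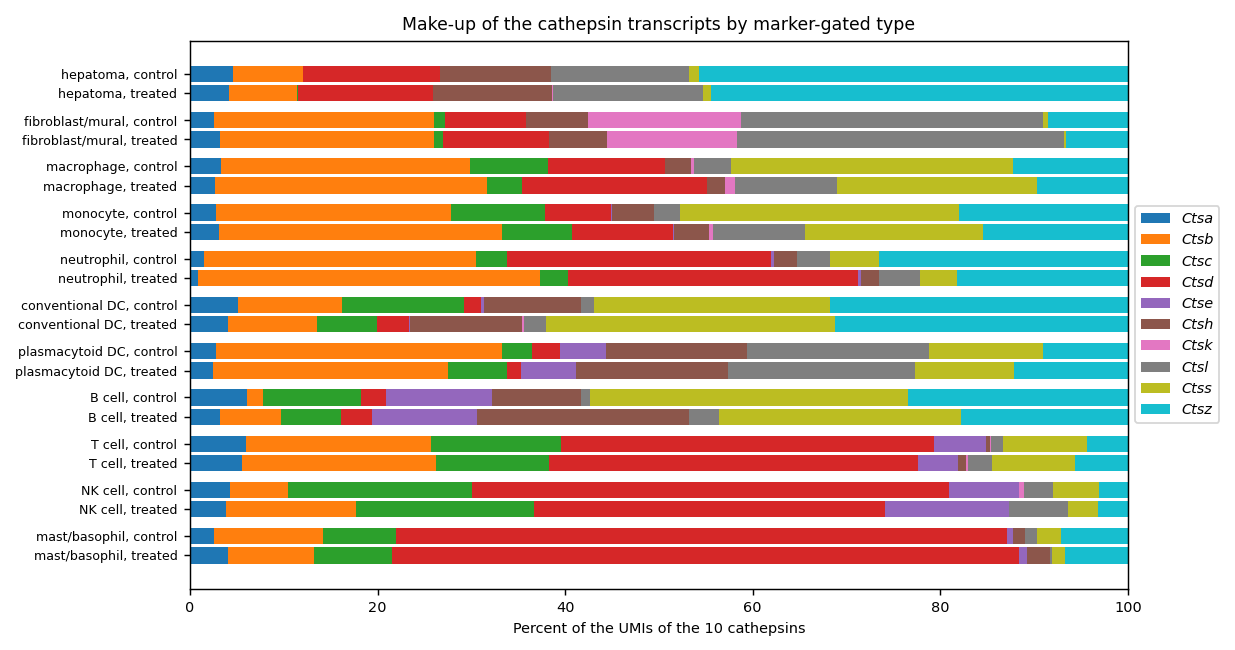
Share of each cathepsin in the summed UMIs of the 10 genes (percent), by type and library. Ctsz takes 45.8% and 44.4% in hepatoma cells and Ctsd 39.8% and 39.4% in T cells, and in macrophages the Ctsl share is 3.99% in the control and 11.0% in the treated bar.

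Free RNA from burst cells gives every droplet some UMIs of abundant genes, so the low levels need a reference. Lyz2, a macrophage and monocyte gene, stood at 4431 and 4488 CPM in macrophage-like cells and at 0.266% and 0.3005% of that in T-like cells. Ctss in T-like cells stood at 1.63% and 1.91% of its macrophage level, Ctsb at 4.05% and 3.29% and Ctsd at 17.5% and 9.24%, which is above the Lyz2 share in each case. Ctsl in T-like cells stood at 0.977% and 1.10% of the highest type and Ctsh at 0.362% and 0.756%. Hepatoma-like cells held 52.2% and 34.4% of the Ctsb UMIs of gated cells and 64.5% and 53.8% of those of Ctsd. For Ctsl they held 93.6% and 79.4%, and for Ctsh 93.2% and 91.5%. Lyz2 is a macrophage and monocyte gene, so its share cannot gauge free RNA of these 4 members. In hepatoma-like cells Lyz2 held 0.0303% and 0.0687% of its macrophage level. Ctsc there held 0.0484% and 0.0946%, close to that share, and Ctss 0.350% and 0.353%. The part of free RNA in these low levels was not tested further.

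The treated macrophage-like cells held more Ctsl, Ctsk and Ctsd and less Ctsc than the control ones, while Ctss, Ctsz, Ctsh and Ctsa differed little. Of the 9 members with enough UMIs, 3 were higher and 1 was lower. Of all 3597 genes measured in these cells 18.4% were past the same bounds, 7.28% higher and 11.1% lower. Ctsl stood at 451 CPM in the control and 1652 CPM in the treated cells, which gives a log2 ratio of 1.87 [1.72 to 2.03]. Ctsk stood at 31.1 and 150.5 CPM, from 26 and 303 UMIs, for a log2 ratio of 2.28 [1.70 to 2.91]. Ctsd stood at 1405 and 2959 CPM, for a log2 ratio of 1.07 [0.98 to 1.17]. These 3 proteases were thus between 2.11-fold and 4.84-fold higher in the treated library. Ctsc stood at 947 and 569.6 CPM, for a log2 ratio of -0.73 [-0.87 to -0.60]. Ctsb, at 3008 and 4363 CPM, had a log2 ratio of 0.54 [0.47 to 0.60], just under 1.5-fold. The remaining log2 ratios were 0.14 for Ctsa, 0.07 for Ctsz, -0.08 for Ctss and -0.10 for Ctsh, against a median of -0.03 over all measured genes.

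**Figure D3:**
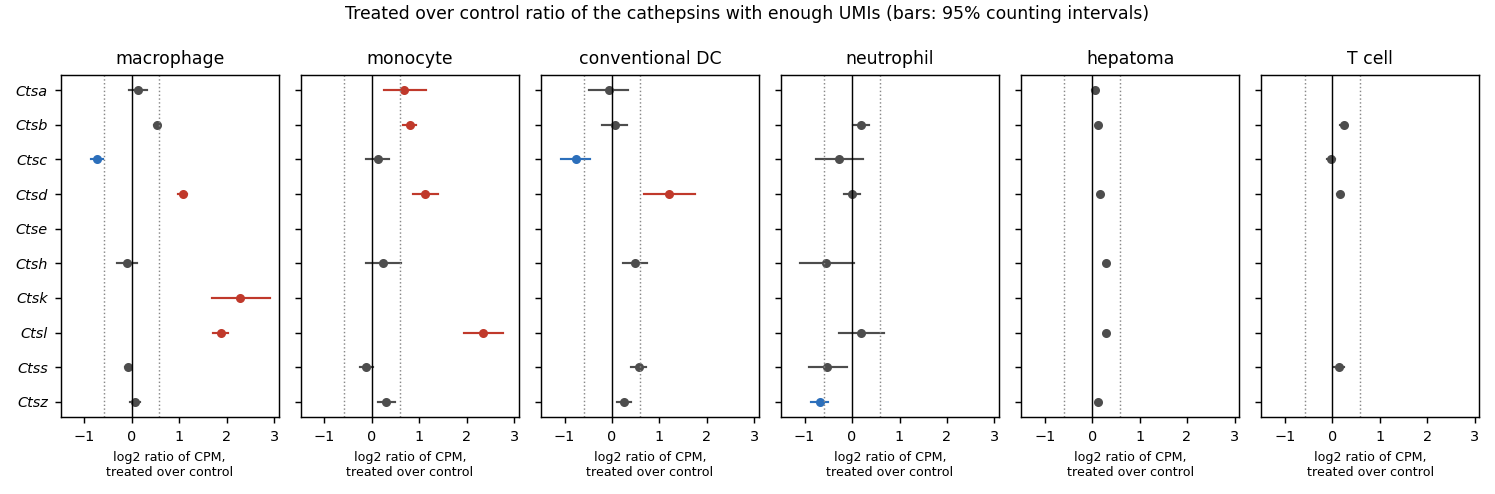
Log2 ratio of CPM (treated over control) for each cathepsin with enough UMIs in 6 types, with exact 95% counting intervals. Dotted lines mark 1.5-fold, red points are called higher and blue points lower. Ctsl, Ctsd and Ctsk are to the right in macrophages, and in hepatoma and T cells all points lie inside the dotted lines.

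The call of Ctsc did not hold in every setting: its log2 ratio was -0.58 with clusters in place of the gate, -0.50 with macrophage-like and monocyte-like cells pooled and -0.55 with Gpnmb, Trem2, Spp1 and Mmp12 left out of the macrophage markers. Ctsl, Ctsd and Ctsk were past 1.5-fold in all 13 alternatives run. Neutrophil markers differed in these cells too, with a summed level of 928 and 1294 CPM. By any margin 11 of the 17 had a greater CPM in the treated library, and Cxcr2 was at 0 in both libraries. Their part in the result was not tested.
Among the macrophage-like cells that hold C1q genes, 85 and 199 cells, Ctsd, Ctsk and Ctsl were again higher, 3 of 9 measured members with 15.2% of all genes measured there past the bounds, 6.03% higher and 9.13% lower, and Ctsc was at -0.55, under 1.5-fold.

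Seen cell by cell, Ctsl was both more widespread and higher. After each cell was thinned to 1000 UMIs, a UMI of Ctsl was found in 32.6% [23.0 to 43.3] of 89 control and 60.9% [54.8 to 66.8] of 266 treated macrophage-like cells, and before thinning in 69.9% and 88.6%. T-like cells, which served as the reference type, showed it in 0.764% and 2.18% after thinning and in 4.91% and 9.25% before. Ctsd was found after thinning in 61.8% [50.9 to 71.9] and 77.1% [71.5 to 82.0] of macrophage-like cells, and before thinning in 82.8% and 95.2%. Ctsd was found in T-like cells too, in 18.96% and 22.0% after thinning and in 63.5% and 67.4% before. Ctsk was confined to fewer cells, at 1.12% [0.0284 to 6.10] and 8.27% [5.26 to 12.3] after thinning and 12.9% and 24.4% before, against 0.0566% and 0.156% of thinned T-like cells. The median macrophage-like cell held 2.51 UMIs of Ctsl per 10000 in the control and 9.52 in the treated library. The tenth of cells with the most Ctsl UMIs held 52.8% and 50.9% of them. Thinned macrophage-like cells showed a median of 4 of the 10 members in the control and 5 in the treated library, against 1 in hepatoma-like and 0 in T-like cells of both.

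Macrophages that hold Gpnmb or Trem2, genes of lipid-laden and phagocytic macrophages, made up 34.4% [24.9 to 45.0] of control and 74.5% [68.9 to 79.6] of treated macrophage-like cells. In both libraries Ctsa, Ctsb, Ctsd, Ctsk, Ctsl, Ctss and Ctsz had a greater CPM in these cells than in the others, with intervals above 0. No share of all genes stands beside this comparison, so it does not show whether the members differ from other genes. The log2 ratio of cells with over cells without was 1.64 and 2.11 for Ctsd, 1.52 and 1.56 for Ctsl, 2.74 and 3.37 for Ctsk, and 1.31 and 1.05 for Ctss. For Ctsa it was 0.76 and 0.57, for Ctsb 0.48 and 1.28 and for Ctsz 0.70 and 0.45. The Ctsk values rest on 4 and 9 UMIs in the cells without. The log2 ratio was -0.14 and -0.00 for Ctsc and -0.05 and 0.23 for Ctsh. Gpnmb and Trem2 are themselves macrophage markers of the gate.

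Within each kind of macrophage the treated and control cells differed in other ways than in the pool. Ctsl was higher in both kinds. It stood at 701 and 1965 CPM in cells with Gpnmb or Trem2, a log2 ratio of 1.49 [1.30 to 1.67], and at 244 and 665 CPM in cells without, 1.45 [1.13 to 1.77]. Ctsd stood at 2236 and 3630.2 CPM in cells with, 0.70 [0.59 to 0.81], and at 720 and 839 CPM in cells without, 0.22 [0.01 to 0.43]. Ctsc was lower in both kinds, at -0.66 and -0.79. Ctss, level in the pool, was at -0.46 [-0.54 to -0.39] in cells with and -0.20 [-0.34 to -0.07] in cells without. Ctsb took opposite signs, at 0.51 [0.43 to 0.60] in cells with and -0.28 [-0.41 to -0.16] in cells without. There were only 32 control cells with Gpnmb or Trem2, too few for a count against the background. In cells without, 2 of the 8 measured members were past 1.5-fold, Ctsl and Ctsc, against 14.4% of the genes measured there, 5.4% higher and 9% lower.
With both kinds given equal weight in each library, a comparison chosen after seeing the data, the log2 ratios were 1.48 for Ctsl, 1.66 for Ctsk, 0.60 for Ctsd and -0.38 for Ctss.

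**Figure D4:**
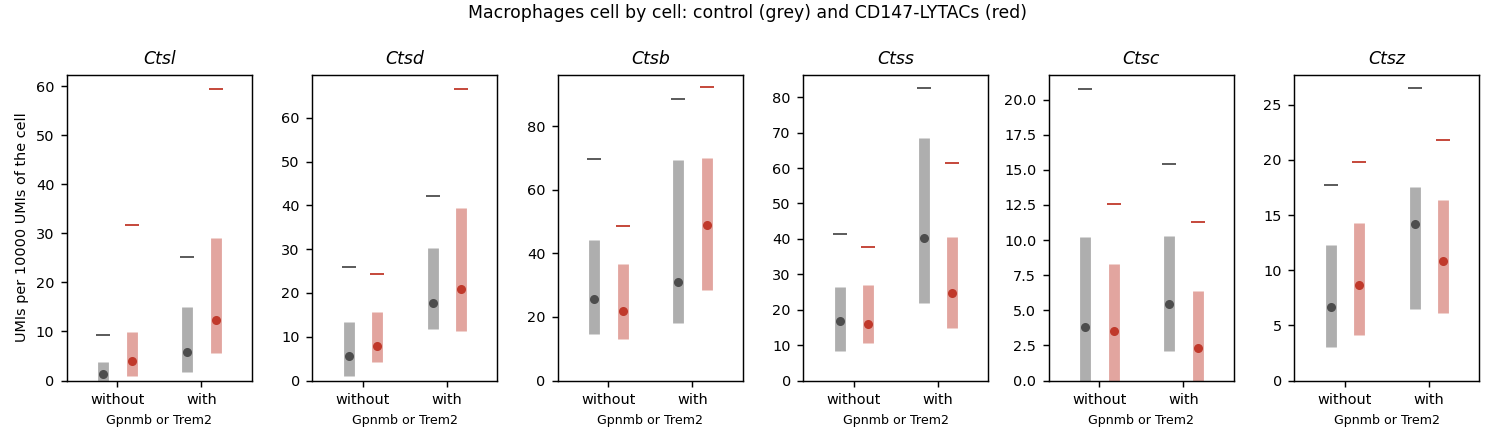
UMIs per 10000 UMIs of a cell for 6 cathepsins in macrophages without and with Gpnmb or Trem2, control in grey and CD147-LYTACs in red. Points are medians over cells, bars run from the lower to the upper quartile and dashes mark the 90th percentile. For Ctsl the red median is above the grey one in both kinds (4.02 against 1.30, and 12.3 against 5.80).

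In monocyte-like cells Ctsl, Ctsd, Ctsb and Ctsa were higher in the treated library, and the other measured members were not past 1.5-fold. Of the 8 members measured, 4 were higher and 0 lower, with 21.1% of all measured genes past the bounds in either direction, 9.49% higher and 11.6% lower. Ctsl stood at 131 and 663 CPM, for a log2 ratio of 2.34 [1.95 to 2.76], Ctsd at 333 and 726 CPM, 1.13 [0.87 to 1.40], Ctsb at 1177 and 2042 CPM, 0.79 [0.65 to 0.94], and Ctsa at 131 and 210.4 CPM, 0.69 [0.25 to 1.14]. Ctss was at -0.11 and Ctsc at 0.12. Ctsk went from 0 UMIs, which allows up to 6.65 CPM, to 24 UMIs and 30.4 CPM. That is 4.57-fold with the control count set to 3, and the counting interval of the log2 ratio starts at 1.78. Ctsk was below the UMI and CPM bounds here, so it could not be called. All 24 of those UMIs lay in treated monocyte-like cells that hold Arg1. Such cells made up 8.33% of control and 43.4% of treated monocyte-like cells. In the cells without Arg1, 3 of 8 members were higher, Ctsl (1.90 [1.41 to 2.42]), Ctsb (0.62) and Ctsd (0.62), with 18% of measured genes past the bounds there, 9.08% higher and 8.89% lower.
Markers of macrophages moved with these values: their summed level was 1577 and 4258 CPM, with Mertk at 0 in the treated library. By any margin 11 of the 15 had a greater CPM in treated monocyte-like cells. The part of this in the cathepsin levels was not tested.

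Conventional dendritic-like cells had Ctsd higher and Ctsc lower, 2 of 7 measured members, with 13.2% of all measured genes past the bounds, 6.16% higher and 7% lower. Ctsd stood at 35.5 and 82.3 CPM from 59 and 62 UMIs, for a log2 ratio of 1.21 [0.67 to 1.75], and Ctsc at 256 and 151 CPM, -0.76 [-1.07 to -0.46]. Ctss was at 0.56 [0.40 to 0.72], under 1.5-fold, and Ctsh at 0.49, Ctsz at 0.25, Ctsb at 0.06 and Ctsa at -0.06. The subsets were unevenly held: cDC1 cells numbered 29 and 7, and cells with the maturation markers 30 and 29. With clusters in place of the gate the Ctsc log2 ratio was -0.46. With a stricter gate 0 members were called, where 13.2% of all measured genes were. Ctsc was then at -0.51, and Ctsd, at 1.30, had 97 UMIs over both libraries, under the 100 needed. Macrophage markers had a summed level of 729 and 815 CPM here, with Trem2, Mertk and Gpnmb at 0 in the control. By any margin 10 of 15 had a greater CPM in the treated library. Their part in the Ctsd value was not tested.

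Neutrophil-like cells, 142 in the control and 1235 in the treated library, had Ctsz lower and 0 members higher. Of 7 measured members 1 was called, with 23.9% of all measured genes past the bounds, 5.97% higher and 17.9% lower. Ctsz stood at 795 and 494 CPM, for a log2 ratio of -0.69 [-0.86 to -0.51], or -0.53 once set against the median of -0.15 over all genes measured in these cells and -0.52 with clusters, both under 1.5-fold. The 2 members with the largest share of neutrophil family UMIs differed little, with Ctsb at 0.19 and Ctsd at -0.00. Ctss was at -0.52 and Ctsh at -0.55. Macrophage markers in these cells had a summed level of 1467 and 5444 CPM, with 9 of 15 at a greater CPM by any margin. Their part in the values was not tested.

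In hepatoma-like cells 0 of 6 measured members were past 1.5-fold, where 0.309% of all measured genes were, 0.168% higher and 0.14% lower. Their depth made small differences measurable: Ctsl stood at 169 and 207 CPM, for a log2 ratio of 0.29 [0.26 to 0.32], Ctsh at 0.28 [0.25 to 0.32], Ctsd at 0.16, Ctsz and Ctsb at 0.13 and Ctsa at 0.05. All 6 were above the median of all genes, -0.01. T-like cells likewise had 0 of 4 past the bounds (0.661% of all measured genes, 0.45% higher and 0.212% lower). Ctsb was at 0.24 [0.16 to 0.31], Ctsd at 0.15, Ctss at 0.14 and Ctsc at -0.03. Over 10 alternatives Ctsb in T-like cells ran from 0.10 to 0.41 and Ctss from -0.03 to 0.34. NK-like cells had 1 measured member, Ctsd, at -0.22 [-0.72 to 0.28] (8.81% of all measured genes past the bounds, 2.81% higher and 6% lower). Among T-like subsets, CD8 T cells had 0 of 4 members past the bounds (0.877% of genes, 0.452% higher and 0.425% lower). Regulatory T cells had 0 of 4 as well (8.27%, 3.44% higher and 4.83% lower). Conventional CD4 T cells had 1 of 5 (3.93%, 1.61% higher and 2.31% lower), Ctsc, at 54.6 and 102.8 CPM, 0.91 [0.56 to 1.27].
Ctsl in T-like cells went from 7.69 to 18.1 CPM, under the 50 CPM needed for a call. Macrophage markers in the same cells had a summed level of 47.9 and 92.8 CPM. By any margin 14 of 15 had a greater CPM in the treated library, with none at 0. The part of this in the Ctsl level was not tested.

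The cathepsin genes outside the 10 were few in these tumours. Of 13 such genes 9 had 0 UMIs in the gated types, and Ctsw alone was measured against the bounds. Ctsw, a protease of cytotoxic lymphocytes, stood at 186 and 198 CPM in T-like and 193 and 227 CPM in NK-like cells, under 1.5-fold in both. Ctsg, a granule serine protease, was held by mast or basophil-like cells, at 191 CPM from 20 UMIs and 800.1 CPM from 140 UMIs, in 20 and 31 cells.

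The genes listed as cathepsin inhibitors differed by cell type. The list holds cystatins and stefins, and also serpins such as Serpinb1a, Serpinb6b and Serpinb9. It is thus not a list of cysteine cathepsin inhibitors alone, and its counts and medians cover all of these genes. Of 17 inhibitor genes 3 were measured in macrophage-like cells, and 1, the cytosolic inhibitor Cstb, was higher, at 726 and 1401 CPM (log2 ratio 0.95), where 7.28% of all measured genes were higher. The list's median was 0.13. Cstb was also higher in monocyte-like cells, at 619 and 1360.3 CPM (1.14), where Cst3, the secreted cystatin C, was lower, at 2146 and 1208 CPM (-0.83), both of 2 measured, where 21.1% of all measured genes were past the bounds. In neutrophil-like cells 5 were measured, 3 were higher and 1 lower, where 5.97% and 17.9% of all measured genes were, and the median was 1.6. Stfa2l1, a marker in the gate, stood at 197 and 597 CPM (1.6), Stfa1 at 4.86 and 57.5 CPM from 2 and 207 UMIs (3.56 [1.69 to 6.62]), Csta2 at 0 and 108.5 CPM, and Cst3 at -0.67. The stefin genes are near-identical copies, so counts among them are uncertain. In hepatoma-like cells 0 of 3 were past the bounds, where 0.309% of all measured genes were.

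The counts for genes that sort, process or regulate cathepsins stand against 7.28% higher and 11.1% lower among all genes measured in macrophage-like cells. In macrophage-like cells 1 of 5 measured sorting genes was higher, Igf2r, the larger mannose 6-phosphate receptor, at 38.3 and 63.6 CPM (0.73), and M6pr, the smaller one, was at 0.08. The sorting count was 0 of 5 in the cells with C1q and 0 of 2 in those without Gpnmb and Trem2. Of 6 processing partners, 0 were higher and 1 lower, Cd74, while Lgmn, the protease that cleaves several cathepsin precursors, was at 1047 and 1258 CPM (0.26) and Psap at 0.24. Of 7 lysosomal regulators and membrane genes 1 was higher, Cd68, also a gate marker (269 and 474 CPM, 0.82), and Lamp1 was at 0.14 and Mitf at -0.33. The class II presentation genes, which hold the invariant chain that Ctss cuts, were lower in 7 of 7, with a median of -0.99 against -0.03 over all genes. In the cells without Gpnmb and Trem2, 0 of 6 were lower (median -0.39, where 9% of all measured genes were lower), and in those with C1q 6 of 7 were (median -0.75). Cd74, the invariant chain, stood at 9981 and 4946 CPM (-1.01), and H2-Aa at 4213 and 2146 CPM (-0.97). In monocyte-like cells 6 of 6 were lower (median -1.22), where 11.6% of all measured genes were, and in those without Arg1 4 of 6 were (median -0.72). In conventional dendritic-like cells 0 of 7 were past the bounds (median -0.05). H2-Aa, H2-Ab1 and H2-Eb1 are themselves dendritic cell markers in the gate. The dendritic markers summed to 13033 and 6760 CPM in macrophage-like cells, with 5 of 16 at a greater CPM by any margin. Their part was not tested.

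Across the 11 types the pattern of each member was compared with that of 7254 genes, by Pearson's r of log2(CPM + 10) over the mean of both libraries. The points share their libraries and differ in depth and cell number, so r is a description. Ctsk was closest to Igf1, a growth factor gene (r = 0.998), and to Plpp3 (0.991). Outside fibroblast or mural-like, macrophage-like and monocyte-like cells its mean level was at most 2.29 CPM, under the 10 CPM added. The r values of Ctsk thus rest mainly on those few types. Ctsb was closest to Sirpa (0.93), a phagocyte receptor and cDC2 marker, Irf7 and Lipa. Ctsd was closest to Por (0.864) and Atp6v0d2 (0.858), a subunit of the proton pump. Ctss was closest to Rasa4 (0.920) and Cybb (0.911), a subunit of the phagocyte oxidase. Ctsc was closest to Cyba (0.915), another oxidase subunit, Ctsh to P2rx4 (0.901) and Grn (0.885), and Ctsz to Tapbp (0.931). Ctsa was closest to Sdc3 (0.926), Ctsl to Rassf8 (0.907) and Ctse to Gm11084 (0.954). Between members, r was greatest for Ctsh and Ctsz (0.848) and for Ctsc and Ctss (0.846), and Ctse had negative r with 7 of the other 9. In neutrophil-like, monocyte-like, conventional dendritic-like, macrophage-like, hepatoma-like and fibroblast or mural-like cells the mean level of Ctse was at most 8.75 CPM. That is under the 10 CPM added, so the r values of Ctse rest mainly on the other types.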

How the data were processed

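Single-cell RNA-seq of Hepa1-6 tumours was analysed from 2 libraries, 1 per group as their treatment label gives it. Per the file headers, the deposited files are sparse matrices of UMI counts, and their values are whole numbers that were not normalized. The submitters' processing notes name Cell Ranger 3.0.2 and mm10, whereas the file headers name cellranger 7.1.0. The sources used here do not give the annotation release or the aligner settings. Gene positions are from GENCODE M21, which holds 99.6% of the identifiers.

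A barcode was kept with 500 UMIs or more, 300 genes or more and no more than 15% of UMIs mitochondrial. Scrublet (scanpy 1.11.5) marked 9 control and 126 treated barcodes by its automatic threshold, too few in the control, so the highest scores were removed at 0.8% per 1000 barcodes (402 and 535), which left 6689 and 7641 cells. A cell entered a type where it held enough of that type's markers, a marker counting at 1 UMI per 10000 or more. No cathepsin was a marker, and the numbers of markers needed were set on marker counts. Cells that met the gates of unlike lineages were left out, and macrophage, monocyte and conventional dendritic gates were settled by the greater share of the own list. UMIs were summed per library and type and given as CPM. Ratios have exact conditional binomial, levels exact Poisson and shares exact Clopper-Pearson 95% intervals (scipy 1.17.1). These cover counting error only, and no test between groups was possible with 1 library in each. Ratios were made for 7 types, those that held 50 cells or more in both libraries, and the code was tested on simulated data. A zero count was taken to allow up to 3 counts. All 10 members were described in every type, and the 3 most alike genes per member were found among genes of at least 50 CPM in 1 type. From the named lists, up to 4 genes were taken as examples. Of 19 inhibitor genes listed, BC100530 and BC117090 were not used here. The members and the lists were chosen with earlier results of these data known. Alternatives covered the filters, doublets, gates, Leiden clusters made without cathepsins, weighting and scaling.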

Additional observations from a re-analysis of the deposited data

Results flagged for a closer look

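Ctsc differed in direction between types, with each value from 1 library per group. Its log2 ratio, treated over control, was 0.91 in conventional CD4 T cells, from 123 and 145 UMIs. It was -0.73 in macrophage-like cells, -0.76 in conventional dendritic-like cells and -0.79 in macrophage-like cells without Gpnmb and Trem2. Each of these intervals excludes no difference, and the signs are opposite. The difference between the types was not tested.

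Ctsb took opposite signs in the 2 kinds of macrophage-like cells, which the pooled value of 0.54 does not show. The log2 ratio was 0.51 in cells with Gpnmb or Trem2 and -0.28 in cells without. The control library gave 32 cells with and 61 without, the treated library 202 and 69. The difference between the kinds was not tested.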

How the results depend on the processing

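Over all 42 log2 ratios measured, 423 of 446 alternative values kept their direction and 43 moved out of the counting interval. Of 120 alternative values of the 11 log2 ratios past 1.5-fold, 120 kept their direction, 105 stayed within the counting interval and 15 moved out of it. With the mean over cells, the log2 ratio was 0.36 for Ctsl in hepatoma-like cells, and in macrophage-like cells 0.83 for Ctsd and 1.62 for Ctsl. With up to 25% mitochondrial UMIs, Ctsd in macrophage-like cells was 0.98. With Leiden clusters, macrophage values were -0.58 for Ctsc, 0.65 for Ctsd, 1.61 for Ctsl and -0.36 for Ctss. The clusters gave 0 members past the bounds in neutrophil-like cells, where 21.8% of all measured genes were. At most 10% mitochondrial and at least 1000 UMIs gave 2 members in neutrophil-like cells, where 24.5% of all measured genes were past the bounds. The next 3 settings were chosen after seeing the data. Macrophage and monocyte gates pooled gave -0.50 for Ctsc, 1.18 for Ctsd and -0.015 for Ctss. Equal weight of the 2 kinds of macrophage gave 0.60 for Ctsd, 1.66 for Ctsk, 1.48 for Ctsl and -0.38 for Ctss. Without Gpnmb, Trem2, Spp1 and Mmp12 as markers, macrophage values were -0.55 for Ctsc and 0.031 for Ctss, and Ctsd in monocyte-like cells was 1.70. The cause of these shifts was not tested. Genes past 1.5-fold with no filter on low counts numbered 1348 against 662 in macrophage-like, 1157 against 480 in monocyte-like, 1417 against 637 in neutrophil-like and 1376 against 11 in hepatoma-like cells, and at 2-fold 162, 145, 205 and 2. No paired analysis was possible because each group was 1 library. A stricter gate left under 50 monocyte-like cells, and the clusters gave no monocyte cluster, so these gave no monocyte value. Low levels in small types are limited by depth, since 3 counts correspond to 8.28 and 10.0197 CPM in NK-like cells.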
